A study of Mus musculus with 9 samples.

Results

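Glucocorticoid target genes and metallothioneins were followed in the livers of mice that had received acetaminophen (APAP), with or without adipose-derived mesenchymal stem cells (AMSCs). The 9 genes, taken by symbol from the 54532 genes of the deposited table, were the glucocorticoid receptor gene Nr3c1, its known targets Fkbp5, Tsc22d3, Zbtb16, Sgk1, Klf9 and Lpin1, and the metallothionein genes Mt1 and Mt2. Expression was given as FPKM, which scales the fragments on a gene to its length and to the library. All 9 genes averaged at least 1 FPKM in the 9 libraries together and were among the 9699 genes tested, but Mt2 and Zbtb16 passed this filter only through the APAP and AMSC groups, since their NC means were 0.197 and 0.274 FPKM.

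Male C57BL/6 mice of 5 to 7 weeks were studied in 3 groups of 3 livers. The NC group was labelled control and had no APAP. The APAP group was fasted overnight, received 500 mg/kg APAP by intraperitoneal injection and was studied 6 h later. The AMSC group received the same dose and, directly after it, 200000 AMSCs through the tail vein, and was studied at the same time point; its libraries are numbered 2, 3 and 4. The AMSCs came from inguinal fat of C57BL/6 mice, so their transcripts cannot be told apart from those of the host liver, and no group received the cells without APAP. The study's methods describe an overnight fast of all animals ahead of APAP, and do not say whether this covers the NC mice, which had no APAP. The clock hour at which livers were taken is not given in the sources used here. If the NC mice were fed or taken at another hour, these differences cannot be told apart from APAP in a comparison with the NC group.

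Glucocorticoids enter the cell, bind the receptor in the cytosol and release it from a complex of HSP90, co-chaperones and immunophilins, after which the receptor moves to the nucleus and binds glucocorticoid response elements. In liver, the hormone is known to induce genes of gluconeogenesis and amino acid breakdown during fasting and stress, together with genes that limit its own signal. Metallothioneins are small cysteine-rich proteins that bind zinc and copper, and their genes are induced by metals through the factor MTF1, by oxidative stress, by cytokines and by glucocorticoids.

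Each library held between 13418921 and 16210930 reads on genes, and 1 read on a 1-kilobase gene was worth 0.0578 to 0.0807 FPKM. The hepatocyte markers Alb, Ttr, Apoa1, Cyp2e1 and Ass1 summed to between 40862 and 64354 FPKM in every library. The 7 lymphocyte and NK markers summed to at most 2.73 FPKM and none of them reached the filter, and the neutrophil markers Mpo and Ly6g were at most 0.0225 and 0.0857 FPKM. Summed macrophage markers were 48.2 to 98.1 FPKM in the NC group, 73.6 to 182 in the APAP group and 41.7 to 67.1 in the AMSC group, and 1 of 6 rose in the APAP group. Summed neutrophil markers were 0.173 to 1.56, 7.04 to 33.2 and 4.0001 to 5.67 FPKM in the same order, with all 3 tested markers higher in the APAP group. S100a8, S100a9 and Retnlg, the markers tested, passed the filter only through the APAP and AMSC groups (NC means 0.308, 0.223 and 0.131 FPKM). The counts of neutrophil markers against the NC group are therefore partly set by the filter and are no measure of direction. Erythrocyte markers summed to 121 to 227, 272 to 1240 and 160 to 269 FPKM, stellate and stromal markers to 18.3 to 33.5, 23.3 to 50.8 and 23.3 to 40.0, and endothelial markers to 14.7 to 32.7, 17.6 to 45.7 and 15.8 to 17.4. In APAP against NC, 2 hepatocyte markers rose and 1 fell, 2 of 3 erythrocyte markers and 1 of 5 endothelial markers rose, and none of 6 stellate and stromal markers passed. In AMSC against APAP, 1 hepatocyte marker rose, 1 macrophage and 1 erythrocyte marker fell, and no other marker passed. In AMSC against NC, 1 hepatocyte marker and 3 neutrophil markers rose, 1 erythrocyte and 1 stellate and stromal marker fell, and no other marker passed. Of all genes tested, 12.8% rose and 13.1% fell in APAP against NC. The shares were 1.64% and 2.14% in AMSC against APAP, and 14.1% and 11.9% in AMSC against NC. A count of 1 or 2 markers in such short lists is no result about a cell type. The part of other cells in the values below was not tested, and in bulk liver fewer cells of a type and less RNA per cell cannot be told apart.

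Compared with the NC group, 6 of the 9 genes rose in the APAP group (Zbtb16, Sgk1, Klf9, Lpin1, Mt1 and Mt2) and Tsc22d3 fell, at an adjusted p of at most 0.05 from limma. Of all genes tested, 12.8% rose and 13.1% fell. All 7 were DEGs, which also need an absolute log2 fold change of 1 or more and made up 7.9% of all genes tested. Compared with the APAP group, 2 of the 9 genes rose in the AMSC group (Fkbp5 and Lpin1), none fell, and Fkbp5 was a DEG, beside 1.64% of all genes that rose, 2.14% that fell and 1.96% that were DEGs. Compared with the NC group, 7 rose and 1 fell in the AMSC group and all 8 were DEGs, beside 14.1%, 11.9% and 6.01% of all genes. The median log2 fold change of the 9 genes was 1.50, 0.55 and 2.05 in the 3 comparisons, and that of all genes tested was -0.00434, 0.0127 and 0.0162. Mt2 and Zbtb16 passed the filter through the groups in which they were high, so these counts and medians describe the list and are no measure of its direction. Both comparisons with the NC group use the same 3 control livers.

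**Figure D1:**
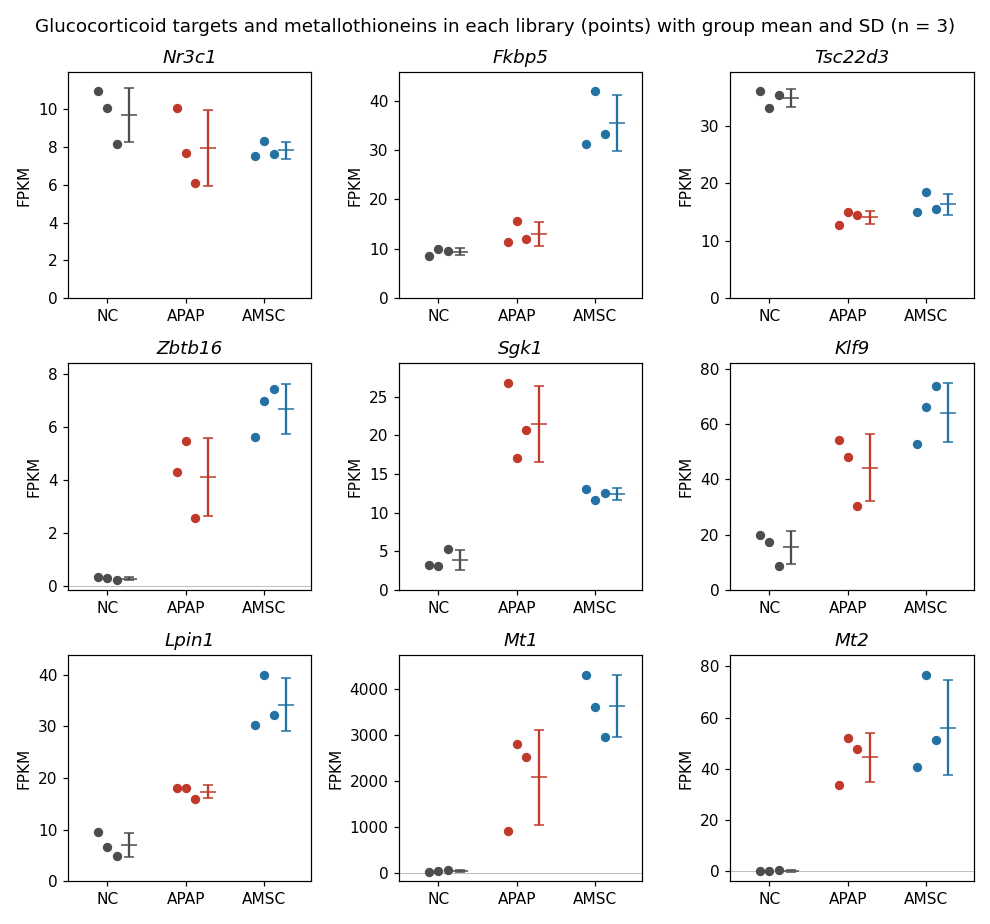
FPKM (linear axis) of each of the 9 genes in each of the 9 libraries, with 1 panel per gene and its own scale; points are libraries in the order of their replicate numbers, and the bar beside them is the group mean with its SD (n = 3). Mt1 runs from 35.5 FPKM in an NC library to 4311 in an AMSC library, Fkbp5 and Lpin1 are highest in the 3 AMSC libraries, Sgk1 is highest in the 3 APAP libraries, and Tsc22d3 is highest in the 3 NC libraries.

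**Figure D2:**
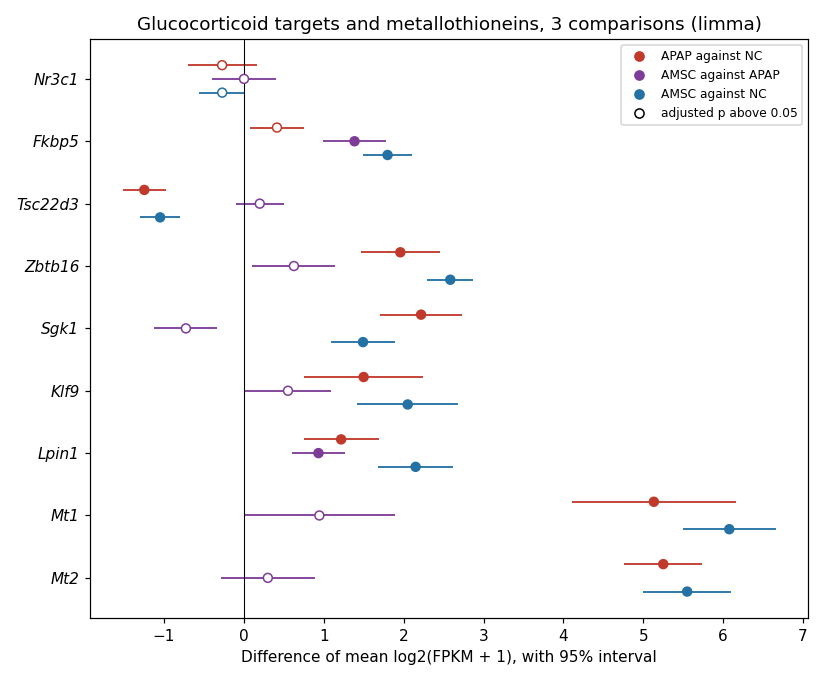
Difference of mean log2(FPKM + 1) for each gene in the 3 comparisons, with its 95% interval from limma; filled points passed an adjusted p of 0.05 and open points did not. Nr3c1 lies near 0 in all 3 comparisons, Mt1 and Mt2 lie above 5 in both comparisons with the NC group, and Fkbp5 and Lpin1 are the filled points of AMSC against APAP.

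Nr3c1 (ENSMUSG00000024431, GRCm38 chromosome 18, 39410545 to 39491301, minus strand) encodes the receptor itself. It was at 10.9, 10.03 and 8.12 FPKM in NC replicates 1, 2 and 3, at 10.1, 7.68 and 6.08 in APAP replicates 1, 2 and 3, and at 7.49, 8.30 and 7.63 in AMSC replicates 2, 3 and 4. The groups overlapped in every comparison. The log2 fold change was -0.27 in APAP against NC (95% interval -0.71 to 0.16, adjusted p = 0.319 from limma) and 0.00084 in AMSC against APAP (-0.40 to 0.40, adjusted p = 0.999). In AMSC against NC it was -0.27 (-0.56 to 0.015, adjusted p = 0.150), and it passed without NC replicate 3 (-0.38, adjusted p = 0.0430), the library with another label date than the other 8. Receptor protein and its place in the cell were not analysed here.

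Of the 16 genes of the receptor, its chaperones and its coregulators, all tested, 2 rose and 3 fell in APAP against NC, 1 rose in AMSC against APAP, and 2 rose and 3 fell in AMSC against NC. Of all genes tested, 12.8% rose and 13.1% fell, 1.64% and 2.14% did, and 14.1% and 11.9% did, in the same order, so the counts against NC lie near the background and are no result about the list, and the 1 gene in AMSC against APAP is Fkbp5 itself. Fkbp4, the immunophilin that FKBP5 competes with on the receptor complex, fell from 77.8, 81.1 and 61.0 FPKM in the NC group to 35.1, 31.2 and 37.1 in the APAP group (log2 fold change -1.06, adjusted p = 0.00263 from limma), and was at 25.1, 25.1 and 30.4 in the AMSC group (-1.41 against NC, adjusted p = 0.000364). Every NC library was above every other library. Stip1, which links HSP70 to HSP90, fell as well, by 0.66 on the log2 scale in the APAP group and by 0.82 in the AMSC group, and so did St13, another HSP70 co-chaperone, by 0.37 and 0.32. The HSP70 family member Hspa8 rose by 0.69 in the APAP group and by 0.62 in the AMSC group. The HSP90 gene Hsp90ab1 rose by 0.43 in the APAP group. The stress-inducible HSP90 gene Hsp90aa1 did not pass in any comparison, and AMSC replicate 3 stood at 147 FPKM beside 69.1 and 70.2 in the other AMSC libraries.

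**Figure D3:**
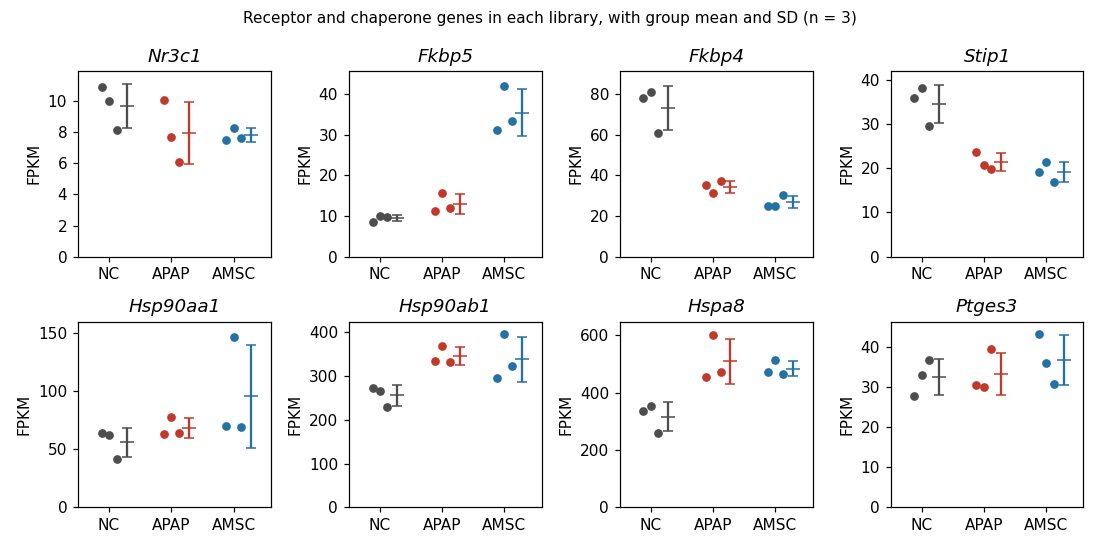
FPKM (linear axis from 0) of 8 genes of the receptor complex in each library; points are libraries and the bar beside them is the group mean with its SD (n = 3). Fkbp4 and Stip1 are highest in the NC libraries, Fkbp5 is highest in the AMSC libraries, and Nr3c1 and the co-chaperone gene Ptges3 overlap between the groups.

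Genes that set the supply of ligand moved in both directions. Hsd11b1, the enzyme that regenerates active glucocorticoid inside hepatocytes, rose from 131, 118 and 128 FPKM in the NC group to 187, 181 and 193 in the APAP group (log2 fold change 0.57, adjusted p = 0.0102 from limma), and was at 156, 141 and 138 in the AMSC group. Serpina6, which encodes the corticosteroid-binding globulin of plasma, fell by 1.09 on the log2 scale in the APAP group and by 1.18 in the AMSC group against NC. Akr1d1 and Srd5a1 encode reductases that inactivate glucocorticoids. Akr1d1 fell by 0.65 in the APAP group and by 0.67 in the AMSC group, while Srd5a1 fell by 0.87 in AMSC against APAP, to between 12.2 and 13.1 FPKM from between 20.1 and 26.9. Srd5a1 was also lower in AMSC against NC (-0.87, adjusted p = 0.00343 from limma), and did not pass in APAP against NC (0.0027, adjusted p = 0.992). H6pd, which supplies the cofactor of HSD11B1, rose in the AMSC group against NC (log2 fold change 0.98, adjusted p = 0.0174 from limma). Of the 8 genes of this list, 5 were tested, and 1 rose and 2 fell, 0 rose and 1 fell, and 1 rose and 3 fell in the 3 comparisons, where 12.8% and 13.1%, 1.64% and 2.14%, and 14.1% and 11.9% of all genes tested did. Hsd11b2 was at most 0.0404 FPKM. Circulating corticosterone was not analysed here.

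Fkbp5 (ENSMUSG00000024222, GRCm38 chromosome 17, 28399094 to 28517527, minus strand) encodes the immunophilin that lowers the receptor's affinity for hormone and so closes a short feedback loop. It was at 8.62, 9.98 and 9.67 FPKM in the NC group, at 11.3, 15.7 and 11.9 in the APAP group and at 31.1, 41.9 and 33.3 in the AMSC group. The AMSC libraries lay above all others, and the APAP libraries lay above the NC libraries without overlap. The mean rose 2.73-fold in AMSC against APAP (log2 fold change 1.38, SE 0.17, adjusted p = 0.00812 from limma) and 3.76-fold in AMSC against NC (1.80, SE 0.13, adjusted p = 8.01e-05). In APAP against NC the log2 fold change was 0.41 (SE 0.15) and did not pass (adjusted p = 0.0776), although it did with the replicate number as a block (adjusted p = 0.0396; the replicate 3 libraries differ in label date) and without APAP replicate 1 (0.50, adjusted p = 0.0472). The call in AMSC against APAP was lost when all genes above 0 were tested (adjusted p = 0.0873). AC154912.1, a gene annotated inside Fkbp5 on the opposite strand, shared 0 of its exon bases.

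Lpin1 (ENSMUSG00000020593, GRCm38 chromosome 12, 16535669 to 16610966, minus strand) encodes lipin 1, a phosphatidate phosphatase of triglyceride synthesis that also acts as a transcriptional coactivator in fasted liver. It was at 9.54, 6.72 and 5.01 FPKM in the NC group, at 18.1, 18.1 and 15.9 in the APAP group and at 30.3, 40.0 and 32.2 in the AMSC group. The 3 groups did not overlap. It rose in APAP against NC (log2 fold change 1.22, SE 0.20, adjusted p = 0.00495 from limma), in AMSC against APAP (0.93, SE 0.14, adjusted p = 0.0187) and in AMSC against NC (2.15, SE 0.21, adjusted p = 0.000308), and was the one of the 9 genes that passed in all 3. The call in AMSC against APAP was lost without APAP replicate 3 (0.87, adjusted p = 0.0634), without AMSC replicate 3 (0.82, adjusted p = 0.0611), without AMSC replicate 4 (0.97, adjusted p = 0.0675) and with all genes above 0 (adjusted p = 0.0961).

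Klf9 (ENSMUSG00000033863, GRCm38 chromosome 19, 23141226 to 23166911, plus strand) encodes a zinc-finger repressor that the receptor induces in many tissues. It was at 19.97, 17.5 and 8.80 FPKM in the NC group, at 54.1, 48.2 and 30.5 in the APAP group and at 52.7, 66.0 and 73.7 in the AMSC group. Both APAP-treated groups lay above the NC group and overlapped each other. It rose in APAP against NC (log2 fold change 1.50, SE 0.32, adjusted p = 0.0130 from limma, and 0.0879 with all genes above 0) and in AMSC against NC (2.05, SE 0.27, adjusted p = 0.00145). In AMSC against APAP the value was 0.55 (95% interval 0.018 to 1.08, adjusted p = 0.227).

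Zbtb16 (ENSMUSG00000066687, GRCm38 chromosome 9, 48654297 to 48836222, minus strand) encodes PLZF, a repressor with a BTB domain. It was at 0.318, 0.285 and 0.220 FPKM in the NC group, which rested on 74 reads over the 3 libraries, at 4.28, 5.47 and 2.55 in the APAP group and at 5.61, 6.98 and 7.43 in the AMSC group. No 2 groups overlapped. The mean was 15.0 times the NC mean in the APAP group (log2 fold change 1.96, SE 0.21, adjusted p = 0.000954 from limma) and 24.3 times in the AMSC group (2.58, SE 0.12, adjusted p = 8.20e-06). The pseudocount of 1 FPKM makes these log2 values small for a gene near 0, and with a pseudocount of 0.1 they were 3.43 and 4.18. AMSC against APAP did not pass (0.63, 95% interval 0.11 to 1.14, adjusted p = 0.169).

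Tsc22d3 (ENSMUSG00000031431, GRCm38 chromosome X, 140539528 to 140600659, minus strand) encodes GILZ, a leucine zipper protein that restrains inflammatory transcription factors and is one of the best known glucocorticoid-induced genes of immune cells. It fell in both comparisons with the NC group, in which Zbtb16, Sgk1, Klf9 and Lpin1 rose. It was at 35.9, 33.0 and 35.3 FPKM in the NC group, at 12.8, 15.0 and 14.4 in the APAP group and at 15.1, 18.4 and 15.4 in the AMSC group. All NC libraries were above all libraries of both APAP-treated groups. Tsc22d3 fell by 1.25 on the log2 scale in APAP against NC (SE 0.12, adjusted p = 0.000448 from limma) and by 1.05 in AMSC against NC (SE 0.11, adjusted p = 0.000486). The AMSC libraries were just above the APAP libraries, with a log2 fold change of 0.20 (95% interval -0.11 to 0.50) that did not pass (adjusted p = 0.446).

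Sgk1 (ENSMUSG00000019970, GRCm38 chromosome 10, 21882184 to 21999903, plus strand) encodes a serine/threonine kinase that acts on ion channels and transporters and is induced by glucocorticoids, mineralocorticoids and cell stress. It was at 3.19, 3.09 and 5.31 FPKM in the NC group, at 26.7, 17.0 and 20.7 in the APAP group and at 13.0, 11.6 and 12.6 in the AMSC group. The order NC, AMSC, APAP held without overlap, and Sgk1 was the one of the 8 targets and metallothioneins with a lower mean in the AMSC group than in the APAP group. The mean was 5.57 times the NC mean in the APAP group and 3.21 times in the AMSC group, and both rises passed (adjusted p = 0.000603 and 0.000738 from limma). The lower level in AMSC against APAP (log2 fold change -0.73, 95% interval -1.12 to -0.33) missed the threshold in the test of all 9699 genes (adjusted p = 0.0602). It passed with protein-coding genes only (adjusted p = 0.0462), with voom on recovered reads (0.0419) and without APAP replicate 2 (0.0410). In the other 13 of 16 settings it did not pass, with an adjusted p of up to 0.314 from limma.

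RefSeq promoter windows, 250 bases before to 50 bases after a start on GRCm38.p6, were available for 7 of the 9 genes, not for Nr3c1 and Zbtb16, with 14 windows in all since Sgk1 and Tsc22d3 have several starts. The consensus glucocorticoid response element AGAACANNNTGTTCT was searched on both strands. It was found in 3 of 32851 windows (0.00913%), in those of Sgk1, Acnat2 and Gm35041. The Sgk1 match lies in 1 of its 6 windows and begins 189 bases before the start. The window is printed because it holds the full element for a gene that rose in both APAP-treated groups; the 250 bases before the start are given 5' to 3', with the element in capitals.
Sgk1 chr10:21993640-21993889 (plus strand): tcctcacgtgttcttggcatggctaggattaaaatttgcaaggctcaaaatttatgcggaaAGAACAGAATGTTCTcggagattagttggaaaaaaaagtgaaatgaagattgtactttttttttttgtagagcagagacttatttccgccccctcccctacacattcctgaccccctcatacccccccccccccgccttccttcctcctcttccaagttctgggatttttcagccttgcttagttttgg
The half-site AGAACA, which is part of the full element, was found in 19.0% of all windows. Among the windows of the other genes it was found in Lpin1, 163 bases before the start, in Tsc22d3, 185 bases before the start of 1 of 3 windows, and in 2 further Sgk1 windows. The windows of Fkbp5, Klf9, Mt1 and Mt2 held no match to it. A match of letters is a description of the sequence and shows no binding. Only exact letters within 300 bases around a start were searched, so a missing match does not show that a gene lacks an element.

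Mt1 (ENSMUSG00000031765, GRCm38 chromosome 8, 94179082 to 94180327, plus strand) was the most abundant of the 9 genes per length in 8 of 9 libraries, the exception being NC replicate 1, in which Tsc22d3 stood at 35.9 FPKM. It was at 35.5, 55.6 and 71.9 FPKM in the NC group, at 911, 2818 and 2521 in the APAP group and at 4311, 3612 and 2964 in the AMSC group. No 2 groups overlapped. By FPKM, Mt1 ranked 650 to 1155 among all genes of an NC library, 27 to 64 in an APAP library and 14 to 21 in an AMSC library. The mean was 38.4 times the NC mean in the APAP group (log2 fold change 5.13, SE 0.44, adjusted p = 0.000324 from limma) and 66.8 times in the AMSC group (6.08, SE 0.25, adjusted p = 3.35e-06). Among all genes tested, only 14 had a larger absolute log2 fold change in APAP against NC and 5 in AMSC against NC. These ranks hold for log2(FPKM + 1), on which the pseudocount shrinks the change of genes near 0 more than that of Mt1. In AMSC against APAP the log2 fold change was 0.94 (95% interval -0.0012 to 1.89, adjusted p = 0.239), and it was 0.43 without APAP replicate 1, the lowest APAP library.

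Mt2 (ENSMUSG00000031762, GRCm38 chromosome 8, 94172664 to 94173568, plus strand) lies next to Mt1. It was at 0, 0.0983 and 0.494 FPKM in the NC group, at 33.9, 52.0 and 48.0 in the APAP group and at 40.6, 76.7 and 51.1 in the AMSC group. The NC values rest on 0, 1 and 5 reads, beside 267 to 586 in the other libraries. Both APAP-treated groups lay above the NC group and overlapped each other. The mean was 226 times the NC mean in the APAP group and 284 times in the AMSC group, folds that hang on those 6 reads. The log2 fold changes were 5.25 (SE 0.21) and 5.55 (SE 0.24), both past the threshold (adjusted p = 1.41e-05 and 4.52e-06 from limma), and with voom on recovered reads they were 8.09 and 8.39. AMSC against APAP did not pass (0.30, 95% interval -0.29 to 0.89, adjusted p = 0.567).

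Per length, Mt1 was 26.9 to 54.2 times as high as Mt2 in the APAP libraries and 47.1 to 106 times in the AMSC libraries. In the NC libraries with a read on Mt2 it was 565 and 145 times as high. The length used for Mt1, 1246 bases, is its whole span from start to end, while that of Mt2, 588 bases, is only part of its span. The 2 genes are thus not scaled alike, and these ratios depend on that. Of the 588 exon bases of Mt2, 432 (73.5%) lie under an exon of Gm45774, an antisense gene on the opposite strand, and whether the authors' counting used strand is not given in the sources used here, so the level of Mt2 is uncertain. Gm45774 was at 0 to 0.0218 FPKM in the NC group and at 0.336 to 1.65 in the other libraries. Transcripts of Mt1 and Mt2 shared no identical stretch longer than 20 bases, and Mt1 overlapped no other annotated gene.

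**Figure D4:**
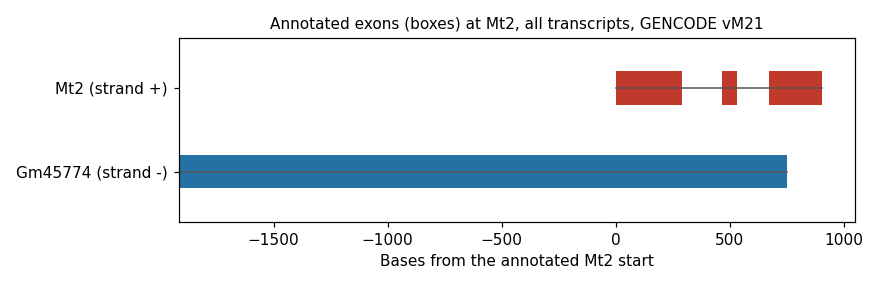
Exons of Mt2 (plus strand) and Gm45774 (minus strand) in GENCODE vM21, with boxes for exons of all transcripts, drawn to scale against the distance in bases from the annotated Mt2 start. The Gm45774 exon reaches from position -1916 to position 748 relative to that start and covers the first exons of Mt2 and part of its last.

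Metal response elements, the sites of MTF1, share the core TGCACNC or TGCGCNC, which was searched on both strands of the same RefSeq windows. At least 1 match was found in 25.7% of all windows, at least 3 in 1.97% and at least 4 in 0.517%. The Mt1 window held 3, of which 1 lies before the RefSeq start, and the Mt2 window held 4, of which 3 lie before the RefSeq start. The 250 bases before each start are printed because both genes rose together and their windows hold several cores; cores are in capitals, on either strand.
Mt1 chr8:94178839-94179088 (plus strand): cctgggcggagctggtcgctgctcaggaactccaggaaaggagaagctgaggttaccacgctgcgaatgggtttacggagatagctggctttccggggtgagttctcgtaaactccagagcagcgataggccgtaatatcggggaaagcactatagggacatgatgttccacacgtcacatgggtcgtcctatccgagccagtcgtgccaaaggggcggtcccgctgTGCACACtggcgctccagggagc
Mt2 chr8:94172368-94172617 (plus strand): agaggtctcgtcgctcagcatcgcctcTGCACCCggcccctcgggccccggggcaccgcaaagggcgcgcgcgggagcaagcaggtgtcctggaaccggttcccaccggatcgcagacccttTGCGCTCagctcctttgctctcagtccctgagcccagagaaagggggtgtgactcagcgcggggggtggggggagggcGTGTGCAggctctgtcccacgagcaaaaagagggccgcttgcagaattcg
Counted from the RefSeq starts, the Mt1 core begins 23 bases before the start, and the Mt2 cores begin 223, 128 and 50 bases before it. The remaining cores lie within the 50 bases after the RefSeq starts. These are not the annotated gene starts given above. The printed Mt1 bases end at 94179088, past the annotated start at 94179082. Those of Mt2 end at 94172617, ahead of the annotated start at 94172664. The side on which a core lies can thus depend on the start used, and no other start of Mt1 or Mt2 was searched. Of the other 5 genes with windows, a core was found in 1 of 6 Sgk1 windows and in none of Fkbp5, Klf9, Lpin1 and Tsc22d3. Here too, a match shows no binding and a missing match in these windows does not show that a gene lacks a site.

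Other genes of zinc handling and MTF1 were read beside the metallothioneins. Of 26 genes of this list, 19 were tested, and 6 rose and 2 fell in APAP against NC (12.8% and 13.1% of all genes tested), none passed in AMSC against APAP (1.64% and 2.14%), and 4 rose and none fell in AMSC against NC (14.1% and 11.9%). Mtf1 itself was at 1.12 to 2.38 FPKM and did not pass in any comparison. Gclc, which encodes the catalytic subunit of glutathione synthesis and also answers to oxidative stress, rose most, with log2 fold changes of 2.03 in APAP against NC and 2.50 in AMSC against NC. The zinc exporter gene Slc30a1, a known MTF1 target, rose by 0.58 in the APAP group and by 0.56 in the AMSC group. Ndrg1 rose by 1.02 and 0.90, but passed the filter only through the APAP-treated groups (NC mean 0.757 FPKM). The intestinal-type zinc importer gene Slc39a4 rose by 0.62 in the APAP group. Slc30a5 and Slc30a6, which load zinc into the secretory pathway, fell by 0.65 and 0.39 on the log2 scale in the APAP group. Neither passed in AMSC against NC (0.11, adjusted p = 0.706, and -0.38, adjusted p = 0.0591, from limma). Slc39a14, a zinc and iron importer, was at 14.3, 56.6 and 24.7 FPKM in the APAP group, which did not pass, and at 38.7, 54.6 and 39.5 in the AMSC group against 15.6, 15.7 and 11.9 in the NC group (log2 fold change 1.55, adjusted p = 0.000530 from limma). Mt3 was at most 0.681 FPKM and Mt4 was at 0 in all 9 libraries.

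A wider list of 28 glucocorticoid-induced genes, 25 of them tested, was read beside the 9 genes. In APAP against NC, 17 rose and 2 fell (12.8% and 13.1% of all genes tested), with a median log2 fold change of 1.23 beside -0.00434 over all genes. The list was chosen with earlier results of these data known, so its counts are a description. Pdk4, Irs2 and Plin4, which rose, passed the filter only through the APAP-treated groups (NC means 0.307, 0.838 and 0.464 FPKM). Rgs2, which also rose, passed it only through the APAP group (means 0.676 in NC, 1.94 in APAP and 0.891 FPKM in AMSC). The counts and medians against the NC group are therefore no measure of the list's direction. The largest rises were those of Igfbp1 (7.98), which binds insulin-like growth factors, Pdk4 (4.96), which holds back pyruvate oxidation, the mRNA decay factor gene Zfp36 (3.59) and the lipoprotein lipase inhibitor gene Angptl4 (3.41). Glul, the glutamine synthetase gene, fell by 3.02 on the log2 scale, and Klf15, a regulator of amino acid breakdown in fasting, fell by 0.92. In AMSC against NC, 18 rose and 1 fell (14.1% and 11.9% of all genes), with a median of 1.56 beside 0.0162. Many genes of this list also answer to fasting, cytokines and cell stress.

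In AMSC against APAP, the same list was split, with 5 genes higher and 3 lower (1.64% and 2.14% of all genes) and a median of 0.0010 beside 0.0127. Ddit4, an inhibitor of mTORC1, was at 7.60, 8.14 and 10.6 FPKM in the APAP group and at 44.6, 61.1 and 50.2 in the AMSC group (log2 fold change 2.43, adjusted p = 0.00115 from limma). With Fkbp5 and Lpin1, the lipid droplet gene Plin4 (1.17), Glul (2.12) and Klf15 (1.02) were higher in the AMSC group, as was the tryptophan-degrading enzyme gene Tdo2 (0.69). With the lower mean of Sgk1 stood lower G6pc, the last step of glucose release (-1.86), Pdk4 (-1.85) and Igfbp1 (-1.34), which passed. Tat, the tyrosine aminotransferase gene used as a marker of hepatic glucocorticoid response, was at 858, 1280.0 and 1035 FPKM in the APAP group and at 1880.0, 2180.1 and 1585 in the AMSC group, without overlap, and did not pass (0.84, adjusted p = 0.0597).

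**Figure D5:**
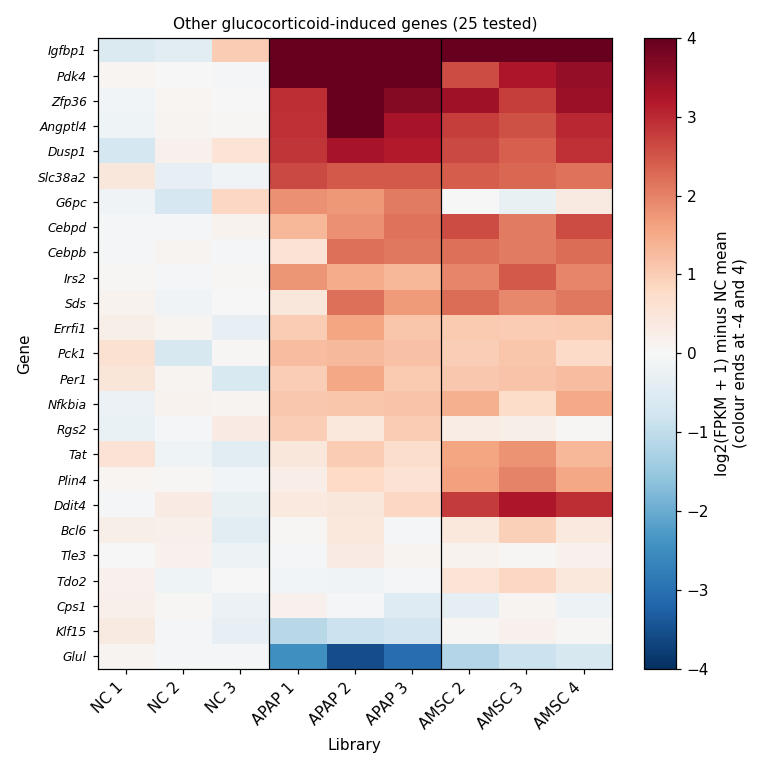
Heat map of the 25 tested genes of the wider glucocorticoid-induced list (rows, in the order of their mean in the APAP group) in the 9 libraries (columns), coloured by log2(FPKM + 1) minus the NC mean; colours saturate at a difference of 4 in either direction. Ddit4, Plin4 and Tdo2 are redder in the AMSC libraries than in the APAP libraries, while G6pc and Pdk4 are redder in the APAP libraries; Igfbp1 is at the end of the scale in both groups.

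Clock genes, of which Per1 is also a receptor target, moved in the comparisons with the NC group as well. Of 18 clock genes, 16 were tested, and 7 rose and 6 fell in APAP against NC (12.8% and 13.1% of all genes tested), with Nr1d1 (3.60), Nfil3 (2.93), Dbp (-2.11) and Per3 (-1.65) changed most on the log2 scale. In AMSC against APAP 2 rose and 1 fell (1.64% and 2.14% of all genes), and in AMSC against NC 7 rose and 7 fell (14.1% and 11.9%). Arntl rose in both comparisons with the NC group, but passed the filter only through the APAP-treated groups (NC mean 0.303 FPKM). Per3 passed it only through the NC group (APAP mean 0.164 FPKM, AMSC mean 0.429 FPKM). The part of the clock in the values of the 9 genes was not tested.

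The genes whose log2 levels ran most like each of the 9 over the 9 libraries were picked by Pearson's r, which the 3 groups largely set. For Fkbp5 they were Lcn2 (0.987), Fbxo31 (0.986) and Plin4 (0.985), and for Lpin1 they were Susd6 (0.991), Zfp740 (0.982) and Fga (0.980). For Mt1 they were Nudt4 (0.994), Kdelr2 (0.993) and Nfkbiz (0.992), and for Mt2 Klf6 (0.997), Nfil3 (0.992) and Atf3 (0.991). Sgk1 ran with Serpina3g (0.992), Vcam1 (0.987) and Adamts1 (0.983), Tsc22d3 with Tgm1 (0.984), Prelid3b (0.978) and Per3 (0.977), and Zbtb16 with Srrm4 (0.987), Csnk2a2 (0.986) and Topors (0.985). Klf9 ran with Usp15 (0.981), Ankrd11 (0.981) and Eif4g2 (0.979), and Nr3c1 with Fam168a (0.963), Prpf8 (0.958) and Arhgap12 (0.957). Each r describes 9 libraries that share their groups, and no neighbour of one gene was a member of the 9.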

How the data were processed

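RNA-seq of 9 livers was analysed. The authors deposited FPKM per gene with gene lengths, and their notes name GRCm38 (mm10); aligner, counting program and strand setting are not given in the sources used here. FPKM times gene length gave whole reads (within 0.1 of a read) for 100% of values, and the scaling of the libraries was that of median-of-ratios size factors. Starts and ends matched GENCODE vM21 for 98.3% of 54409 shared identifiers. Genes averaging at least 1 FPKM (9699) were tested on log2(FPKM + 1) with limma 3.58.1 (lmFit, eBayes with trend) in R 4.3.3, with 2 groups per fit and Benjamini-Hochberg adjustment over all genes tested. The scripts were tested on simulated data. Motifs were searched in Python 3.11.15, with numpy 2.4.6 and pandas 2.3.3, and matplotlib 3.10.9 drew the figures.

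The 9 genes and the 12 other lists were chosen with earlier results of these data known. Named are the 9 genes, up to 4 genes per list and comparison with the largest change past the adjusted p, any gene of the receptor, ligand and zinc lists, and the 3 genes most like each of the 9. Of the wider glucocorticoid-induced list, Klf15, Tdo2, Tat, Per1 and the other genes of AMSC against APAP were named after their values were seen. Alternatives were another pseudocount, other filters, rescaling, quantile normalization, a single fit, protein-coding genes, a replicate block, no trend, voom on recovered reads and leaving out each replicate. Same-numbered libraries deviated together in APAP against NC (r = 0.213, 0.160 and 0.378 over genes). Differently numbered libraries were not compared and no label names a shared litter or batch, so this does not show that the livers are paired. The main fit treated them as unpaired. The pair with the highest r joins NC replicate 3, whose title carries another date and the number 1, to APAP replicate 3. Replicates are separate livers, and 3 per group limit the precision.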

Additional observations from a re-analysis of the deposited data

How the results depend on the processing

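The calls of the 9 genes held in most alternatives: 140 of 143 results that combine a gene of the 9 with a setting kept direction and side of the threshold in APAP against NC, 131 of 143 in AMSC against APAP and 142 of 143 in AMSC against NC. Rescaling nearly repeats the main fit, and settings that change only the genes tested leave the log2 fold change as it was. Most of the 131 come from the 7 genes not called in the main fit, while Lpin1 changed in 4 of 16 settings. With all genes above 0, AMSC against APAP called 0 of the 9 genes, 0 DEGs among them, and 53 genes and 21 DEGs in all (main: 367 and 190). This setting adds low genes both to the adjustment and to the estimate of the spread, and their parts were not tested. Single genes of the other lists were not recomputed under the alternatives. With a mean of at least 5 FPKM, which tests fewer genes, 1318 genes and 478 DEGs were called in APAP against NC (main: 2514 and 766), 178 and 102 in AMSC against APAP, and 1509 genes in AMSC against NC (main: 2521). Voom gave 1197, 296 and 968 DEGs in the 3 comparisons, a pseudocount of 0.1 gave 915 DEGs in AMSC against NC (main: 583), and a single fit of all libraries called 624 genes in AMSC against APAP; the cause was not tested. The replicate block gave 335 DEGs in AMSC against APAP and 846 genes in AMSC against NC, where libraries of the shared numbers 2 and 3 did not deviate together (r = -0.104 and -0.293, and -0.199 and -0.309). Among the 9 genes it changed the call of Fkbp5 in APAP against NC only.

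Leaving out 1 library gave 1353 to 2749 genes in APAP against NC and 1678 to 2356 in AMSC against NC. In AMSC against APAP it gave 100 to 366 genes, 90 to 229 DEGs, 1 to 3 of the 9 genes called and 1 to 2 DEGs among them. The low values came without APAP replicate 3 (120 genes) and without AMSC replicate 2, 3 or 4 (105, 100 and 101), and without NC replicate 1 or 2 (1413 and 1353) or APAP replicate 2 (1655) in APAP against NC. Nr3c1 in AMSC against APAP changed sign at values near 0, to -0.0123 with quantile normalization and over the range of -0.155 to 0.166 when 1 library was left out. Lpin1 reached a log2 fold change of 1 without AMSC replicate 2.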
